A study of Mus musculus with 30 samples.

Results

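The late step of differentiation in WT MEL cells was read by comparing the 5 RNA libraries of WT cells at day 5 with the 5 libraries of WT cells at day 2, which together make up 10 of the 30 libraries of the series. MEL cells are an established mouse line that came from a virus-induced erythroleukemia, and the clone used here was DS19. The cells of both groups are labelled WT, and whether they carried the control vector with which the study also transduced cells is not given for these libraries. They had been kept in 1.5% DMSO, which starts erythroid maturation in this line, for 2 or 5 days. The other libraries are WT cells before DMSO and *Abcb10*-null cells, a single CRISPR/Cas9 clone, at the same 3 days, and the 10 *Abcb10*-null libraries of days 2 and 5 are used only where the late step differed between genotypes. Replicates are named as biological replicates without a record of how the cultures were kept apart, so the p-values measure the spread between these libraries. The comparison covered every gene that passed the count filter, and it asks which transcripts still changed after the first 2 days, at the stage when the cells fill with hemoglobin.

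As background, a maturing erythroblast makes globin chains and heme in step, imports iron through the transferrin receptor, builds a spectrin-based skeleton under its membrane, and leaves the cell cycle after a few last divisions. Ribosome production, many organelles and most of the transcripts of the progenitor are lost on the way. The transcription factors GATA1, TAL1 and KLF1 drive this program, while MYB and MYC hold cells in the dividing state.

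The 10 libraries held 10498239 to 16553112 counts. Genes with at least 1 count numbered 19360 to 21740 in the day 2 libraries and 22529 to 29986 in day 5 replicates 1 to 4. In day 5 replicate 5 they numbered 18948. The first principal component, with 41.2% of the variance, separated the days, and day 5 replicate 5 lay nearest to day 2 on it (score 17.6, against 38.5 to 47.9 for the other day 5 libraries and -43.3 to -26.9 for day 2). On the second component (27.5%) day 2 replicates 1 and 2 and day 5 replicate 2 stood at 38.8 to 55.8, and the other 7 libraries at -42.4 to 3.32. The same 3 libraries had the largest share of counts in the annotation class TEC, which holds loci still awaiting an experimental test (0.317% to 0.409%, against 0.113% to 0.203% in the other 7) and low mean levels of ribosomal protein transcripts. Each leading count of genes called between days in WT cells was therefore also computed without these 3 libraries. The same was done without them and day 5 replicate 5. The count of genes that differed between genotypes and the share of the most abundant genes were recomputed without single libraries, but not without these sets. The part that these differences between libraries had in the results was not tested.

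**Figure D1:**
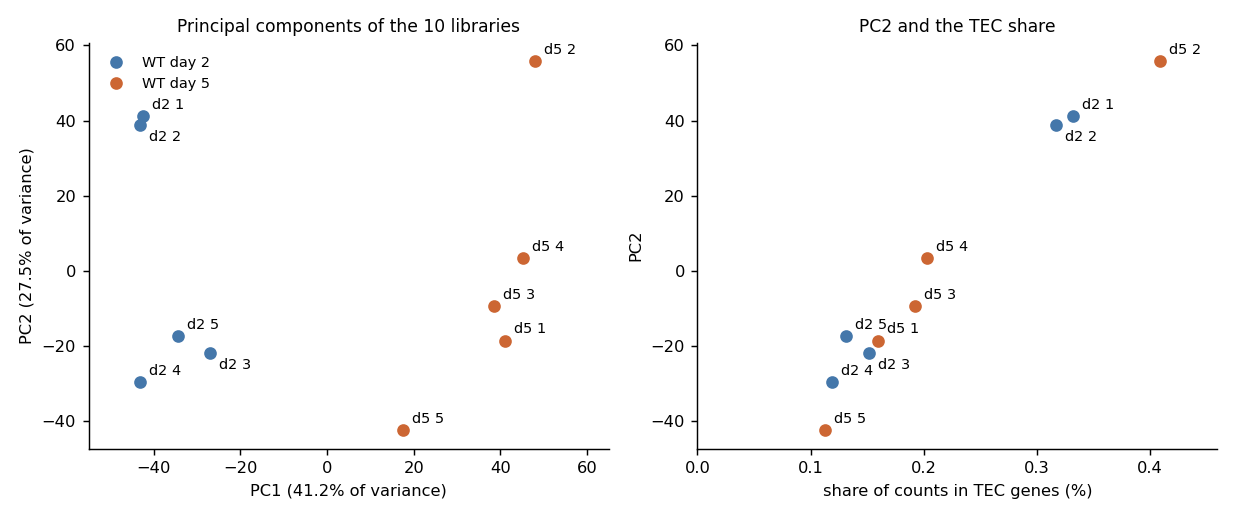
Left, scores of the 10 WT libraries on the first and second principal components of log2 CPM, with their share of the variance in percent. Right, the second component against the percentage of counts in TEC genes. Labels give day (d2, d5) and replicate number. Days separate on the first component, and day 2 replicates 1 and 2 and day 5 replicate 2 lie at 38.8 to 55.8 on the second, with TEC shares above 0.3%.

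The labelled cell type was carried by the erythroid markers. The summed level of the 11 erythroid markers found in the annotation was 3960 to 5330 CPM (counts per 1000000, on library sizes scaled by TMM) at day 2 and 12800 to 26200 CPM at day 5, and 10 of the 11 were called higher. Of the 12 lymphoid markers none passed the count filter. They summed to 0.533 to 0.774 CPM at day 2 and to 0.901 to 3.97 CPM at day 5. The 10 fibroblast markers summed to 1.6 to 2.6 CPM at day 2 and to 2.55 to 8.68 CPM at day 5. The 1 that passed the filter, *Pdgfrb*, was not called (log2 fold change 0.25), and DESeq2, which tested 7 of the 10, called 2 higher. Myeloid and mast cell markers summed to 52.4 to 68.9 CPM at day 2 and 29.1 to 52.0 CPM at day 5, and 2 of the 5 tested were called lower, *Prtn3* (log2 fold change -1.93) and *Spi1* (-0.75), the gene of the transcription factor PU.1. *Cebpa*, the marker of this list with the most counts, was at 25.8 and 22.2 CPM. Megakaryocyte markers summed to 193 to 225 CPM at day 2 and 263 to 433 CPM at day 5, and the 1 call among the 5 tested was *Itga2b* (1.23). In bulk RNA, fewer cells of a type and less RNA per cell cannot be told apart.

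Of 13025 genes tested with edgeR's quasi-likelihood test, 2217 were higher and 2134 lower at day 5 than at day 2 at a Benjamini-Hochberg adjusted p under 0.05, which is 17% and 16.4% of the genes tested. Past an absolute log2 fold change of 0.58 as well, 1460 were higher and 1686 lower. The median log2 fold change of all genes tested was -0.03. With library size alone as the scale that median was -0.14, and the share of calls that were higher fell from 51% to 38%, while with upper quartile factors the median was -0.09 and the share 42.5%. Without the 3 libraries named above, 2299 genes were higher and 2202 lower, and without these and day 5 replicate 5, 2985 and 3209. Of the genes called in the 10 libraries, 3630 and 4080 were called in the same direction in these smaller sets, and none in the opposite direction. Medians of the gene lists below are to be read against the median of all genes, and shares of called members against 17% and 16.4%. In the smaller sets the shares of all genes tested differ. They were 17.4% higher and 16.7% lower without the 3 libraries, and 22.9% and 24.6% without these and day 5 replicate 5. Without day 5 replicate 5 alone they were 19.3% and 18.7%. Where a list below has no edgeR call in one direction, DESeq2 called none there either, and no tested member had an unadjusted p under 0.05 in that direction except 1 higher mitochondria-encoded transcript, 1 lower gene of the Bcl2 list and the ribosomal protein genes given below.

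*Slc4a1*, the gene of band 3, the anion exchanger of the red cell membrane (ENSMUSG00000006574, GRCm38 chromosome 11, 102348824 to 102366203), had the largest rise in the ranking used here. It stood at 14.4, 14, 0.933, 1.59 and 2.27 CPM in the 5 day 2 libraries and at 534, 635, 498, 651 and 253 CPM at day 5. The groups did not overlap, and the day 2 libraries split into 2 near 14 CPM and 3 near 1 to 2 CPM. The log2 fold change was 6.29 ± 0.71 (SE, adjusted p = 5.95e-05), and 8.42 without the 4 libraries that stood apart. The gene of the major adult beta globin, *Hbb-bs* (ENSMUSG00000052305, chromosome 7, 103826534 to 103828096), rose from 119, 119, 144, 179 and 140 CPM to 2620, 2100, 2190, 2360 and 1310 CPM (log2 fold change 3.92 ± 0.21, adjusted p = 5.94e-07). The ranking of rises and of falls covers called genes of at least 5 CPM without overlap between days, predicted genes and pseudogenes aside. Its other rises among the 10 largest were *Ltbp2* (3.79), *Alas2* (3.47), *Csf2rb2* (3.37), *Apol11a* (3.24), *Apol11b* (3.15), *Slfn14* (3.13), *Hbb-bt* (3.06) and *Hba-a1* (3.05). *Ltbp2* encodes a matrix protein of the family named for binding latent TGF-beta, and *Csf2rb2* a beta chain of the interleukin-3 receptor. *Slfn14* encodes an endoribonuclease of the Schlafen family known from platelets and red cells. *Csf2rb2* spread widely at day 5, from 45.3 CPM in replicate 5 to 656 CPM in replicate 2. Reads of *Csf2rb2*, *Apol11a*, *Apol11b* and the globin genes can come from near-identical neighbouring copies, so the split between copies is uncertain.

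Among the falls the largest were *Sapcd1* and *Car1*, each at -3.08. *Car1*, the gene of carbonic anhydrase 1 (ENSMUSG00000027556, chromosome 3, 14766216 to 14808368), was at 205, 221, 475, 403 and 405 CPM at day 2 and at 43.9, 28.6, 34.7, 33.4 and 61.7 CPM at day 5, with no overlap (adjusted p = 1.86e-05). Its mean before DMSO was 1450 CPM. The proto-oncogene *Myb* (ENSMUSG00000019982, chromosome 10, 21124935 to 21160984) fell from 23.2, 24.3, 47.1, 57.1 and 54.7 CPM to 9.38, 6.98, 6.28, 6.13 and 15.2 CPM (log2 fold change -2.23 ± 0.33, adjusted p = 0.000384). At day 0 *Myb* had been at 250 ± 11.9 CPM (SD, n = 5). Among the 10 largest falls were also *Tnrc18* (-2.75), the nucleolar factor *Tcof1* (-2.39), *Acap1* (-2.34), the galectin *Lgals1* (-2.22), the myosin *Myo1g* (-2.22) and *Vash2* (-2.22). *Tnrc18* was at 23 and 23.1 CPM in day 2 replicates 1 and 2 and at 4.39 to 6.58 CPM in the other 3, and its log2 fold change was -1.26 without the 4 libraries that stood apart.

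**Figure D2:**
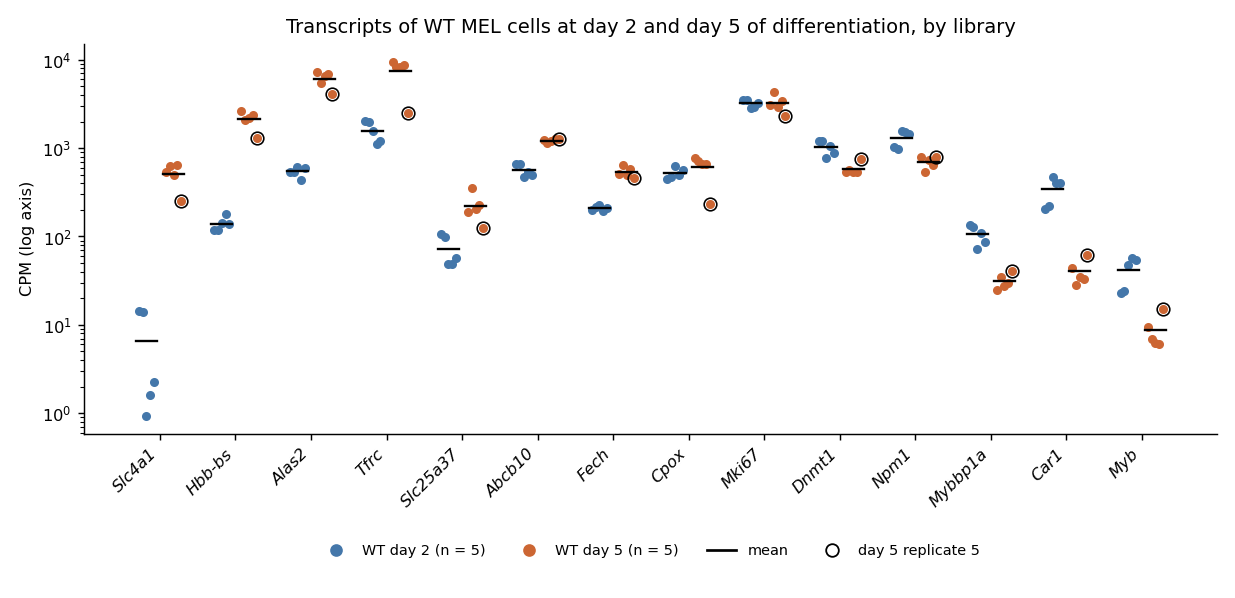
CPM on a log axis of 14 transcripts in each WT library at day 2 and day 5, with a line at the mean of 5 libraries and a ring around day 5 replicate 5. *Slc4a1* to *Fech* are above the day 2 libraries in each day 5 library, *Cpox* and *Mki67* overlap between days, and *Dnmt1* to *Myb* lie below.

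Transcripts for heme synthesis rose in part. Of the 9 enzymes 5 were called higher and none lower (median log2 fold change 0.61), and 4 of the 5 did not overlap between days. *Alas2*, the erythroid first enzyme (ENSMUSG00000025270, chromosome X, 150547375 to 150570638), went from 535, 544, 614, 437 and 592 CPM to 7210, 5410, 6490, 6860 and 4060 CPM (3.47 ± 0.19, adjusted p = 5.94e-07). *Fech*, the last enzyme, which inserts the iron, rose from 209 ± 12.8 to 536 ± 71.4 CPM (SD, n = 5; log2 fold change 1.36), and *Urod*, which decarboxylates uroporphyrinogen, from 188 ± 8.76 to 329 ± 32.8 CPM (0.82). *Alas1*, the form of the first enzyme used outside erythroid cells, rose by 0.61 from 17.6 to 26.6 CPM, with overlapping libraries. *Alad* (log2 fold change 0.29, adjusted p = 0.145), *Uros* (0.36, 0.166), *Cpox* (0.23, 0.512) and *Ppox* (0.13, 0.571) were not called by edgeR. *Cpox* was at 449, 468, 620, 503 and 567 CPM at day 2 and at 770, 724, 658, 670 and 236 CPM at day 5, so 4 of the 5 day 5 libraries were above all day 2 libraries and replicate 5 was below them. Without the 4 libraries that stood apart, 8 of the 9 enzymes were called higher.

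The sequence before the RefSeq start of *Alas2* and of 2 further erythroid genes that rose, *Kel* (1.46) and *Tal1* (1.50), is shown because it holds a form of the core that GATA factors bind. That form is the letters AGATAA on either strand, here in capitals, and other forms of the core were not searched. These members were chosen after their values were seen.
Alas2: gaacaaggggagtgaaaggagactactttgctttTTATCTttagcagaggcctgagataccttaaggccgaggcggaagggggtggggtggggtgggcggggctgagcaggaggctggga
Kel: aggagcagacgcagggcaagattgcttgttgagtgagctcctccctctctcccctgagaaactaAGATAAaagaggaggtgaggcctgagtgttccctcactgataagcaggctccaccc
Tal1: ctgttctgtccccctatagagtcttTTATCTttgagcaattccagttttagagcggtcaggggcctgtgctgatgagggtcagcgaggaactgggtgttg
The stretches are chrX:150547297-150547416 on the plus strand, chr6:41704326-41704445 on the minus strand and chr4:115056196-115056295 on the plus strand of GRCm38 (RefSeq promoter table, build GRCm38.p6), and each is given 5′ to 3′ in the direction of the gene. Within the 250 bases before the first start listed, the letters AGATAA or their complement stood in 5.94% of the 9003 tested genes matched to the table, 4.49% of those called higher, 6.78% of those called lower and 10.3% of all 27025 promoters. They were found in 1 of 7 heme enzymes, 3 of 10 membrane skeleton genes and 4 of 17 blood group and surface genes matched. Of the erythroid transcription factors, 2 of 23 matched held them. Beside members that rose, such as *Epb42* (1.72), they stood before *Tpm3* (-0.48) and *Cd44* (-1.39), which were called lower.

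*Tfrc*, the transferrin receptor (ENSMUSG00000022797, chromosome 16, 32608920 to 32632794), was at 2030, 1970, 1560, 1110 and 1200 CPM at day 2 and at 9520, 8190, 8190, 8760 and 2480 CPM at day 5. Its libraries did not overlap between days (log2 fold change 2.25 ± 0.32, adjusted p = 0.000266), and replicate 5 was the lowest at day 5. *Slc25a37*, mitoferrin 1, which carries iron into mitochondria, rose from 72.2 ± 28.5 to 221 ± 84.2 CPM (1.62), and *Abcb10*, the mitochondrial transporter that the study deleted in its other line, from 567 ± 87.3 to 1220 ± 46.6 CPM (1.11 ± 0.12, adjusted p = 3.69e-05). The *Abcb10* values of day 5 lay close together, at 1150 to 1260 CPM, replicate 5 included. Of 28 tested genes of mitochondrial iron import, iron-sulfur assembly and heme transport, 7 were called higher and 5 lower (median 0.01). The lower calls were 2 or 3 in 8 of the 10 fits without 1 library, the exceptions being those without day 2 replicate 2 or day 5 replicate 5. Among those called lower were the heme oxygenase *Hmox1* (-0.91) and *Abcb8* (-0.91), and among those called higher beside the transporters was *Isca1* (1.11), which acts in iron-sulfur assembly. *Hmox1* kept its call in 3 of 10 fits, each run without 1 library.

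Among 16 tested genes of cellular iron handling 6 were called higher and 2 lower, and 7 and 4 without day 5 replicate 5. The ferritin receptor *Ncoa4* (0.84) and the ferritin light chain *Ftl1* (0.77) were higher, while *Steap3*, the ferrireductase of the endosome (-0.90), and the iron chaperone *Pcbp1* (-0.63) were lower. Globin transcripts were measured in libraries from which globin RNA had been depleted, so their levels understate the cell's content. Even so, each of the 5 globin genes tested was called higher (median 3.06), among them *Hbq1a* (3.31), and the globin share of all counts went from 0.018% to 0.0281% at day 2 to 0.158% to 0.319% at day 5. Replicate 5 had the lowest share at day 5.

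Membrane genes rose in part. Of 18 genes of the red cell membrane skeleton 8 were called higher and 1 lower (median 0.34). Beside *Slc4a1*, protein 4.2 (*Epb42*), which ties band 3 to the skeleton, rose from 49.3 ± 11.3 to 161 ± 32.8 CPM (SD, n = 5; log2 fold change 1.72 ± 0.18, adjusted p = 3.69e-05). The tropomyosin gene *Tpm3* was the member called lower (-0.48), and it kept that call in 3 of the 10 fits without 1 library. Of 19 blood group and surface genes 10 were called higher and 2 lower (median 0.61). *Cd47* (1.66), *Kel* (1.46), *Ackr1* (1.20, at 0.636 and 1.46 CPM) and *Cd24a* (1.0) were higher, and the adhesion receptors *Cd44* (-1.39) and *Bcam* (-0.87) were lower.

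Of the 26 erythroid transcription factors 9 were called higher and 4 lower (median 0.15). *Sox6* (1.78), which silences embryonic globin, *Foxo3* (1.65) and *Tal1* (1.50) had the largest rises, and *Bcl11a* (-1.33), *Stat5a* (-1.03) and *Tcf3* (-0.64) the largest falls. *Klf1* was higher by 0.52 (adjusted p = 0.00674), and *Gata1* was at 293 and 334 CPM (0.19, adjusted p = 0.166). These 2 were named for their role, after their values were seen. In the list of 14 tested progenitor and leukemia factors 4 were called lower and 1 higher (median -0.32). *Myb*, *Myc* (-1.47) and *Id1* (-0.97) fell, *Ikzf2* (0.89) was higher, and *Runx1*, the member with the most counts, was at 51.5 and 56.1 CPM (0.13, adjusted p = 0.83). *Ikzf2* kept its call in 3 of the 10 fits without 1 library and *Tcf3* in 5. Of 14 genes of erythropoietin and Kit signalling 4 were higher, among them the feedback inhibitor *Socs3* (1.66), the kinase *Pim1* (1.49) and *Jak2* (0.83), and 3 were lower, *Stat5a*, *Sh2b3* (-0.82) and *Ptpn6* (-0.74), the last 2 of which restrain the same receptors.

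**Figure D3:**
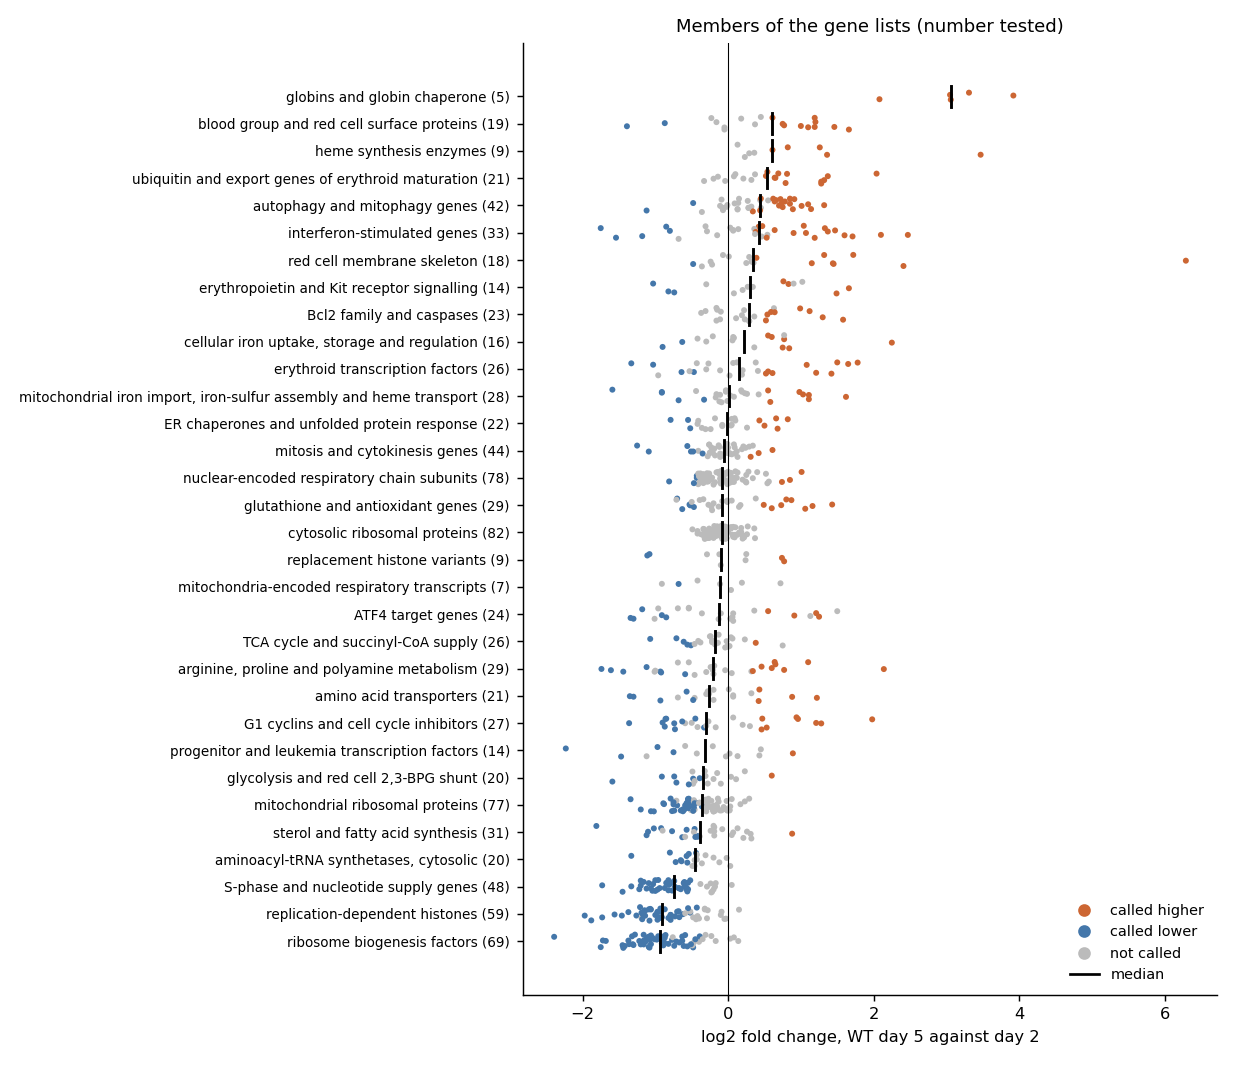
Log2 fold change, day 5 against day 2, of each tested member of 32 gene lists (number tested in brackets), coloured by its call at an adjusted p under 0.05, with a bar at the list median. Globin genes have the highest median (3.06) and ribosome biogenesis factors the lowest (-0.94).

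Most DNA replication genes fell, while most mitosis genes were not called. Of the 48 S-phase and nucleotide supply genes 39 were called lower and none higher (median -0.75), against 16.4% of all genes tested. In 41 of the 48 each day 5 library was below each day 2 library. Over all genes tested the day 5 libraries were all below day 2 for 10.8% and all above for 12.7%. The licensing factor *Cdt1* (-1.73), the polymerase delta subunit *Pold2* (-1.45) and DNA ligase 1 (*Lig1*, -1.33) fell most, and *Dnmt1*, the maintenance DNA methyltransferase, went from 1030 ± 200 to 583 ± 90.6 CPM (-0.81). Of the 44 mitosis and cytokinesis genes 6 were called lower and 3 higher (median -0.05). *Espl1*, separase (-1.25), *Plk1* (-1.09) and *Bub1b* (-0.56) were lower, and *Cdc25b* (0.61), *Nusap1* (0.42) and *Ect2* (0.31) were higher, the last 2 keeping their call in 3 of the 10 fits without 1 library. The higher calls were 5 without day 5 replicate 5 and 1 when day 2 replicate 1, 2, 4 or 5 or day 5 replicate 1, 3 or 4 was left out. With library size alone none of the 44 was higher and 14 were lower, with a median of -0.17. *Mki67*, the gene of the proliferation antigen Ki-67, was at 3540, 3550, 2830, 2900 and 3210 CPM at day 2 and at 3090, 4370, 2940, 3440 and 2330 CPM at day 5 (0.02 ± 0.16, adjusted p = 0.946). The median of the S-phase genes was -0.69 and that of the mitosis genes -0.09 without the 4 libraries that stood apart.

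Most replication histone transcripts were lower too. Of the 59 tested replication-dependent histone genes 43 were called lower and none higher (median -0.91). *Hist3h2ba* fell from 99.0, 106, 111, 143 and 92.4 CPM to 38.5, 23.8, 27.3, 28.5 and 31.1 CPM (-1.88), *Hist1h2an* fell by 1.73 on the log2 scale and *Hist2h2bb*, the one with the most counts, from 2650 to 1520 CPM (-0.79). *Hist2h2aa2* was at 10.3 and 2.61 CPM (-1.97). Copies of these genes are near-identical, and antisense genes cover the exons of the last 2, so the values of single genes are uncertain. Most of these transcripts carry no poly(A) tail, and they were counted here because the libraries were made from total RNA. Among the 9 replacement variants tested, which are made outside S phase, *H3f3a* (0.77) and the linker histone *H1f0* (0.74, from 834 to 1380 CPM) were higher, and *H2afx* (-1.11) and *H2afy* (-1.08) were lower.

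G1 regulators split. Of 27 tested 8 were higher and 10 lower. The inhibitors *Cdkn2b* (1.98) and *Cdkn1b* (1.28) and the retinoblastoma gene *Rb1* (1.21) rose, and *Cdkn1b*, p27, went from 81.5, 75.9, 134, 76.8 and 103 CPM to 247, 219, 227, 247 and 204 CPM. *Ccnd3*, the cyclin with the most counts, rose by 0.47. *E2f4* (-1.36), *Cdkn1c* (-0.90) and *Cdk4* (-0.87) fell.

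The letters that E2F and NF-Y bind are common before genes of the cell cycle, and stretches of 2 S-phase genes that fell (*Mcm5*, -1.20, and *Mcm6*, -1.0, subunits of the replicative helicase) and of 2 mitosis genes that were not called (*Top2a*, -0.04, adjusted p = 0.84, and *Ube2c*, 0.08, 0.715) are shown for comparison. The 4 were chosen after their values were seen. Capitals mark, for the first pair, 4 forms of the E2F letters on either strand, which are TTGGCGC with its variant TTCCCGC, and the mixed form TTGCCGC with its counterpart TTCGCGC. For the second pair they mark CCAAT on either strand. Matches of the first kind can overlap each other.
Mcm5: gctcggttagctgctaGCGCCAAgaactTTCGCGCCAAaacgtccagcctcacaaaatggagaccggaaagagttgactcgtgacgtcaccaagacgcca
Mcm6: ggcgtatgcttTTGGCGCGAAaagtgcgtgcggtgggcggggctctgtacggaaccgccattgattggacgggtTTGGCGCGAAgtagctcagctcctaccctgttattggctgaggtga
Top2a: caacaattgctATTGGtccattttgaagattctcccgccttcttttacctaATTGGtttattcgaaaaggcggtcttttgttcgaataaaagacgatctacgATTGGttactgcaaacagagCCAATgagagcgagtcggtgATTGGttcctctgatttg
Ube2c: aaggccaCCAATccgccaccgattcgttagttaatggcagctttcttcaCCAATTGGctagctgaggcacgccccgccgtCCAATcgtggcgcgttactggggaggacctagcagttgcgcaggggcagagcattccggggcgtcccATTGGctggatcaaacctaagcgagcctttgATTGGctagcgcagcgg
They are chr8:75109329-75109428 (plus strand), chr1:128359706-128359825 (minus strand), chr11:99024230-99024389 (minus strand) and chr2:164769694-164769888 (plus strand) of GRCm38, read 5′ to 3′ in the direction of the gene. In the 250 bases before the start, the E2F letters stood in 16 of 40 matched S-phase genes (40.0%), in 4 of 36 mitosis genes (11.1%), in 15.1% of tested genes and in 7.97% of all promoters in the table. CCAAT stood in 25 of 40 S-phase genes (62.5%), in 27 of 36 mitosis genes (75.0%), in 37.7% of tested genes and in 34.5% of all promoters. Among genes called lower 18.4% held the E2F letters, and among those called higher 13%. A match is a description of the sequence and not a binding site.

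**Figure D4:**
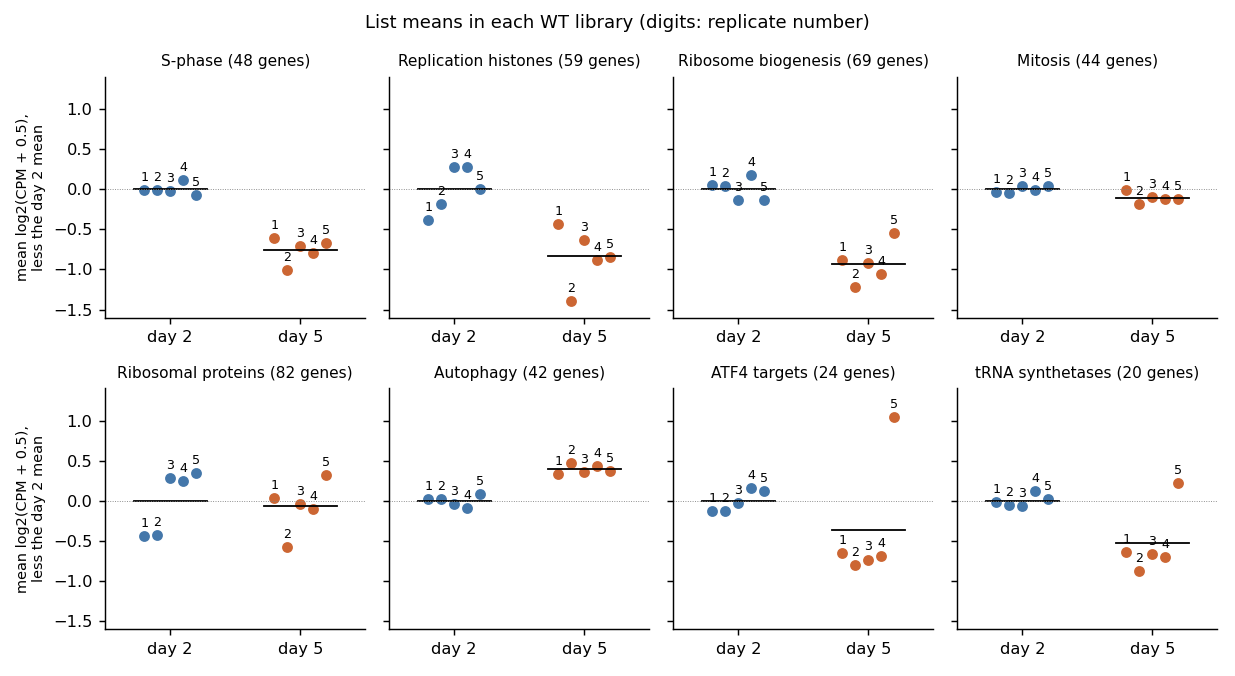
Mean log2(CPM + 0.5) over the tested members of 8 lists in each WT library, less the day 2 mean, with the replicate number beside each point and a line at the group mean. S-phase, histone and ribosome biogenesis means are below every day 2 library in each day 5 library, mitosis means lie close to the day 2 mean, and day 5 replicate 5 alone is above day 2 for ATF4 targets and tRNA synthetases.

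Most ribosome biogenesis factors fell, and no ribosomal protein gene was called in the 10 libraries. Of 69 ribosome biogenesis factors 58 were called lower and none higher, with a median of -0.94, the lowest of the lists. *Tcof1*, which supports transcription of ribosomal RNA genes, went from 67.9, 60.0, 20.7, 34.2 and 24.9 CPM to 6.84, 8.95, 8.58, 6.42 and 8.56 CPM. *Mybbp1a* (-1.75) and *Gar1* (-1.72), a protein of the pseudouridylation particles, fell with it, and nucleophosmin (*Npm1*) went from 1310 to 699 CPM (-0.90). Of 82 cytosolic ribosomal protein genes none was called in either direction by edgeR (median -0.08), 1 was higher and 2 lower at an unadjusted p under 0.05, and DESeq2 called none. *Rps4x*, with the most counts, was at 2440 and 2500 CPM. This list moved with the libraries that stood apart. Its mean log2 level was 8.49 and 8.5 in day 2 replicates 1 and 2 and 9.17 to 9.27 in the other 3, and 8.35 in day 5 replicate 2 against 8.83 to 9.25. Without day 5 replicate 5 alone 5 members were lower. Without the 3 libraries 1 member was called higher and 19 lower, and without day 5 replicate 5 as well, 1 and 59, with a median of -0.35. Mitochondrial ribosomal proteins were lower in 30 of 77 and higher in none (median -0.36), led by *Mrpl12* (-1.34), *Mrps28* (-1.20) and *Mrps18b* (-1.06), while *Mrps21*, with the most counts, was at 180 and 211 CPM (0.23, adjusted p = 0.335). The lower calls of this list were 19 without day 2 replicate 3, 16 without day 2 replicate 4 and 17 without day 5 replicate 4.

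Of 78 nuclear-encoded respiratory chain genes 3 were higher (*Atp5s* 1.01, *Ndufa1* 0.85, *Cox7a2l* 0.74) and 4 lower, among them *Atp5g1* (-0.81), *Ndufv1* (-0.47) and *Atp5g3* (-0.43), with a median of -0.08. The lower calls were 10 without day 5 replicate 5, 1 without day 2 replicate 4 or day 5 replicate 3, and 2 without day 2 replicate 5 or day 5 replicate 4, and the higher calls were 5 without day 2 replicate 3. Without the 4 libraries that stood apart the counts were 7 and 32. Of 7 tested mitochondria-encoded transcripts *mt-Nd1* was lower (-0.68), and *mt-Co1* was at 7940 and 9000 CPM (0.19, adjusted p = 0.458). In the TCA cycle list 5 of 26 were lower, led by *Idh2* (-1.07), *Idh3a* (-0.71) and *Mdh2* (-0.61), and *Clpx*, whose protein also acts on ALAS, was higher (0.38, in 7 of the 10 fits without 1 library). The lower calls were 3 without day 2 replicate 4, day 5 replicate 1 or day 5 replicate 4. In glycolysis 7 of 20 were lower, with *Hk2* (-0.91) and *Eno1* (-0.74), and 3 or 4 were lower when day 2 replicate 2, 3, 4 or 5 or day 5 replicate 4 was left out. *Pklr*, the pyruvate kinase gene of liver and red cells, fell from 135, 147, 103, 107 and 103 CPM to 49.6, 41.9, 43.4, 34.1 and 28.2 CPM (-1.59 ± 0.16, adjusted p = 3.37e-05), and *Bpgm*, whose product makes 2,3-BPG, was the member called higher (0.60). *Hcn3* on the other strand covers 22% of the exon bases of *Pklr*, *Apex2* 12.9% of those of *Alas2* and *Tspan31* 19.7% of those of *Cdk4*, while *Cadm3* covers 25.7% of those of *Ackr1* on the same strand. The strand setting of the counting is not given in the sources used here. In the sterol and fatty acid list 12 of 31 were lower, among them *Fasn* (-1.81) and *Fads2* (-1.12), and *Idi1* was higher (0.88). Without day 5 replicate 5 the higher calls of this list were 4. *Fasn* was at 479 and 485 CPM in day 2 replicates 1 and 2, at 133 to 153 CPM in the other 3, and at 46.4 to 103 CPM at day 5, and its log2 fold change was -0.85 without the 4 libraries that stood apart.

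Amino acid genes depended on a single day 5 library. ATF4, the factor that the cell makes when amino acids run short or heme is low, turns on a set of synthesis and transport genes. Of its 24 tested targets 4 were called higher and 5 lower (median -0.12). The mean log2 level of the list was 5.56 to 5.84 at day 2, 4.88 to 5.03 in day 5 replicates 1 to 4 and 6.73 in day 5 replicate 5. Without replicate 5, 3 were called higher and 16 lower, with a median of -0.70. The higher calls were 2 without day 2 replicate 1, 2 or 4, and the lower calls 3 without day 5 replicate 1, 3 or 4. *Ddit3*, the gene of CHOP, was at 44.4, 43.7, 53.6, 48.0 and 61.4 CPM at day 2 and at 69.2, 54.5, 66.0, 72.4 and 321 CPM at day 5 (1.21, and 0.41 without replicate 5). *Asns*, asparagine synthetase, was at 443, 431, 668, 662 and 724 CPM and at 355, 297, 348, 354 and 929 CPM (-0.36, adjusted p = 0.379, and -0.77 without replicate 5). *Atf3* (1.25) and *Nupr1* (0.91) were higher, and *Shmt2* (-1.34), the cationic amino acid transporter *Slc7a1* (-1.3) and *Psph* (-1.18) lower. Of 20 aminoacyl-tRNA synthetases 9 were lower and none higher, and 19 were lower without day 5 replicate 5, and 5 without day 2 replicate 4 or day 5 replicate 4. *Vars* (-1.33), *Lars* (-0.80) and *Kars* (-0.72) fell most, and *Eprs* was at 639 and 590 CPM.

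In arginine, proline and polyamine metabolism 8 of 29 were higher and 7 lower. Spermine oxidase (*Smox*) rose from 79.5, 77.5, 53.5, 51.4 and 50.9 CPM to 290, 230, 290, 308 and 251 CPM (2.14 ± 0.16, adjusted p = 3.73e-06), and *Azin1*, the antizyme inhibitor, by 0.77, while spermidine synthase (*Srm*) fell from 118 to 35.3 CPM (-1.74). *Ass1* (-1.61, at 2.25 and 0.725 CPM), *Prodh* (-1.44) and *Eif5a* (-0.59) fell too, and *Padi1* rose from 0.782 to 1.67 CPM (1.10). Of 21 amino acid transporters 4 were higher and 5 lower, but 2 and 11 without day 5 replicate 5 and 1 and 6 with library size alone. The higher calls were also 2 without day 2 replicate 3, 4 or 5 or day 5 replicate 4. The leucine carrier *Slc43a1* (1.22), the glycine carrier *Slc6a9* (0.88), which supplies the substrate of ALAS2, and *Slc38a5* (0.43) were higher, with *Slc38a2* (0.42), and *Slc25a22* (-1.35) and *Slc1a5* (-0.93) were lower beside *Slc7a1*. The calls of *Slc6a9* and *Slc38a2* held in 4 of the 10 fits without 1 library.

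Of 42 autophagy and mitophagy genes 20 were called higher and 2 lower (median 0.44), and the list means of the day 5 libraries, 5.68 to 5.81, were all above those of day 2, 5.25 to 5.43, replicate 5 included. *Map1lc3a* (1.32), *Gabarap* (1.14), both of the LC3 family that coats the autophagosome, and the cargo receptor *Nbr1* (1.10) rose most, and *Sqstm1* rose by 0.44. *Atg10* (-1.12) and *Tfeb* (-0.48) were lower, *Tfeb* in 2 of the 10 fits without 1 library. *Bnip3l*, the receptor through which maturing red cells remove mitochondria, was higher by 0.73 (188 to 311 CPM, adjusted p = 0.00753), and it was named for that role after its value was seen. Of 21 ubiquitin and export genes of erythroid maturation 12 were higher and none lower (median 0.54), led by *Ranbp10* (2.04), *Wdr26* (1.37) and *Ube2h* (1.32), and *Rmnd5a*, with the most counts, went from 315 to 761 CPM (1.28). *Wdr26*, *Ube2h* and *Rmnd5a* encode parts or partners of a ubiquitin ligase, the CTLH complex.

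Of 23 tested genes of the Bcl2 family and caspases 8 were higher and none lower (median 0.29), with 1 lower without day 5 replicate 5. The BH3-only genes *Bbc3* (1.58), *Bmf* (1.3) and *Bcl2l11* (1.12), which promote cell death, and the survival gene *Mcl1* (0.54, 617 to 892 CPM) rose. Antioxidant genes split, with 8 of 29 higher and 5 lower, or 3 lower without day 5 replicate 1 or 4. *Gpx1* (1.43), *Prdx2* (from 904 to 2010 CPM) and catalase (*Cat*, 1.06), which remove peroxide in red cells, rose, and *Pgd* (-0.70), *Prdx1* (-0.63) and *Txnrd1* (-0.53, called in 5 of the 10 fits without 1 library) fell. Of 22 ER genes 5 were higher, with *Atf6* (0.82), *Sel1l* (0.68) and *Dnajb9* (0.66), and 3 lower, *Sdf2l1* (-0.79), *Hyou1* (-0.55) and *Creld2* (-0.52), with *Hyou1* keeping its call in 3 of the 10 fits without 1 library, and *Hspa5* was at 1930 and 1820 CPM. Without day 5 replicate 5 the lower calls of this list were 7 (median -0.21), and without the 4 libraries that stood apart 12. Of 33 interferon-stimulated genes 16 were higher and 5 lower (median 0.42). The higher calls were 10 with library size alone, and the lower calls 3 without day 2 replicate 3, 4 or 5 or day 5 replicate 2 or 4. The 3 with the largest rises were low, *Ifit1* at 0.497 and 2.77 CPM (2.47), *Oasl2* at 0.471 and 2.04 CPM (2.10) and *Isg15* at 0.627 and 2.06 CPM (1.71). Whether the larger number of genes detected in day 5 replicates 1 to 4 bears on rises at such low levels was not tested. *Psmb8* (-1.75), *Ifit2* (-1.54) and *Oasl1* (-1.18) fell, and *Eif2ak2*, with the most counts, rose from 103 to 133 CPM (0.38).

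The genes that took the most counts at day 5, not scaled for gene length, were the noncoding *Rn7sk*, *Rpph1*, *Malat1*, *Gm26917* and *mt-Rnr2*, the mitochondrial *mt-Co1*, and *Eef1a1*, *Tfrc*, *Alas2* and *Mki67*. *Malat1* went from 2080 to 4230 CPM at day 2 to 7280 to 16600 CPM at day 5 (1.88), and *Gm26917*, a long noncoding RNA of chromosome 17, from 18000 to 52100 CPM to 6840 to 12900 CPM (-1.87). *mt-Rnr2* was higher by 1.39, with day 5 replicate 5, at 2980 CPM, inside the day 2 range. *Rn7sk* was higher by 0.81 in a call that 5 of the 10 fits without 1 library kept, and *Rpph1* (0.11, adjusted p = 0.852) and *Eef1a1* (-0.07, 0.833) were not called. The 100 genes with the most counts in each library held 22.4% ± 0.63 of the counts at day 2 and 23.4% ± 1.25 at day 5 (SD, n = 5), a difference of 1.03 points that did not pass an exact two-sided permutation test (p = 0.127). Without globin, mitochondria-encoded and small RNA genes the shares were 18.7% and 18% (exact p = 0.0714).

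The late step was not the same in *Abcb10*-null cells. These came from 1 clone, so loss of *Abcb10* and other traits of that clone cannot be told apart. In a fit of the 20 libraries of both genotypes at days 2 and 5, the change differed between genotypes for 657 of 13956 genes (4.71%), with the WT change more positive for 410 (2.94%) and more negative for 247 (1.77%). That count moved with single libraries, from 275 without WT day 5 replicate 4 to 1352 without WT day 5 replicate 5. *Tfrc* was the most abundant of the 10 genes named for the largest differences. It stood at 890 ± 224 and 882 ± 275 CPM in *Abcb10*-null cells at days 2 and 5, so that the WT change exceeded the *Abcb10*-null change by 2.26 ± 0.40 on the log2 scale (adjusted p = 0.00457). For *Slfn14* (2.44), *Arrdc3* (2.31), *Gpcpd1* (2.22) and the calcium pump *Atp2b4* (2.11) the WT change was also the more positive. Mean CPM (± SD) at day 2 was higher in *Abcb10*-null than in WT cells for *Slfn14* (7.92 ± 4.82 against 2.03 ± 0.25), *Arrdc3* (42.4 ± 24.3 against 28.5 ± 3.19) and *Gpcpd1* (103 ± 54.5 against 47.8 ± 11.1). It was lower for *Atp2b4* (20.5 against 47.3). *Abcb10*-null day 2 replicate 2 was below the WT mean for *Slfn14* (0.594 CPM), *Arrdc3* (16.5 CPM) and *Gpcpd1* (31.3 CPM). These differences at day 2 were not tested. At day 5 *Slfn14* was at 12.7 CPM in *Abcb10*-null and 17.8 CPM in WT cells, and *Gpcpd1* at 118 and 255 CPM. For *Pitpnm2* (-2.36), *Kif21b* (-2.28), *Kcp* (-2.19), *Foxp4* (-2.03) and *Slc7a1* (-1.76) it was the more negative, with fitted changes of -1.90 to -1.17 in WT and 0.28 to 1.02 in *Abcb10*-null cells. *Kcp* held this call in 3 of the 20 fits without 1 library, *Atp2b4* in 4 and *Foxp4* in 11. Among heme enzymes described here the difference was called for *Alad* (1.22), *Urod* (0.68) and *Cpox* (1.42), of which *Cpox* kept the call in 10 and *Urod* in 7 of the 20 fits. *Alad* and *Cpox* were called lower at day 5 in *Abcb10*-null cells, with fitted changes of -0.93 and -1.19, against 0.29 and 0.24 in WT cells. For *Urod* the fitted changes were 0.14 in *Abcb10*-null and 0.82 in WT cells. The difference between genotypes was not called for *Alas2* (-0.43 ± 0.39, adjusted p = 0.564), which rose in both genotypes. Its mean went from 544 to 6000 CPM in WT and from 157 to 2340 CPM in *Abcb10*-null cells, so it was lower in the latter at both days. *Abcb10* transcripts were still counted in the null cells, at 202 ± 62.1 and 211 ± 30.9 CPM at days 2 and 5 (difference 1.05, adjusted p = 0.011).

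**Figure D5:**
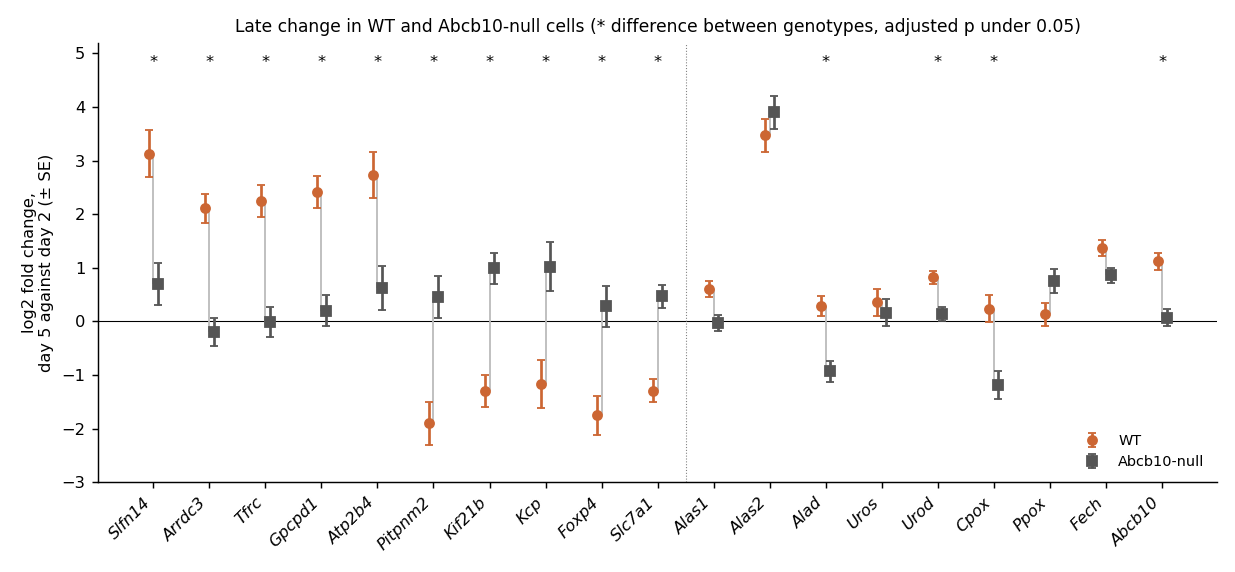
Log2 fold change of day 5 against day 2 (± SE, fit of 20 libraries) in WT and *Abcb10*-null cells for the 10 genes with the largest called differences and, right of the dotted line, for 8 heme enzymes and *Abcb10*. Asterisks mark an adjusted p under 0.05 for the difference, and *Tfrc* lies at 2.25 in WT and -0.01 in *Abcb10*-null cells.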

How the data were processed

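Total RNA of WT MEL cells at day 2 and day 5 of DMSO was depleted of ribosomal and globin RNA and sequenced as stranded libraries. The authors aligned the reads to GRCm38 with STAR 2.6.1b and made the deposited table with featureCounts 1.6.3, whose values are raw counts per Ensembl gene (54532 genes, 30 libraries). Strand, multimapping and fragment settings of that step are not given in the sources used here, and globin levels are those left after depletion. From these counts, edgeR 4.0.16 (R 4.3.3) was run with its default filter on low counts, TMM factors and the quasi-likelihood test on the 10 libraries, and p-values were adjusted by the Benjamini-Hochberg method across every tested gene. SE is the absolute log2 fold change over the square root of F. The change in *Abcb10*-null cells was compared with that in WT cells by the interaction term of a 20-library fit. The shares of the 100 most abundant genes were compared by an exact permutation test, whose smallest p is 0.00794. DESeq2 1.42.0, other scalings, other filters, leaving out libraries and a replicate block were alternatives, and the sets without 3 or 4 libraries were chosen after seeing the data.

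Genes were named by rule, namely the 10 largest rises and the 10 largest falls among called genes of at least 5 CPM whose libraries did not overlap, the 10 genes with the highest mean CPM at day 5, every heme enzyme and *Abcb10*, in each of the other lists up to 3 called members in each direction and the member with the highest mean CPM, and the 5 largest genotype differences in each direction. Some genes that the rule names are not reported here. Genes outside the rule are said to be so in the text. The members and lists were chosen with earlier results of these data known. Of the listed identifiers 37 were not in the annotation (GENCODE, GRCm38) and held 0.0116% of the counts. In data simulated from these libraries for the WT comparison (12813 genes tested), edgeR found 56 of 100 genes changed by 1 on the log2 scale and 86 of 100 changed by 2, and called 8 of 12620 unchanged genes. Each gene was drawn independently, so differences between libraries that many genes share were not simulated. The 8 calls therefore do not give the error rate in data with such differences. Library totals of 10498239 to 16553112 counts set the counting error, and no 2 libraries of a group agreed within sampling noise.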

Additional observations from a re-analysis of the deposited data

Results flagged for a closer look

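A single library lay far from the other 4 of its group, by Dixon's test at the 95% level, for 42 of the 392 groups of 5 checked over 196 genes. Chance flags about 1 in 20 groups. Day 5 replicate 5 was that library in 24 of them and day 5 replicate 2 in 11. Values are CPM. In day 5 replicate 5 they were *Apol11b* (139), *Tfrc* (2480), *Cpox* (236), *Isca1* (120), *Ncoa4* (120), *Hbq1a* (5.53), *Stat5a* (34.9), *Dnmt1* (744), *mt-Nd1* (189), *Mdh2* (108), *Ddit3* (321), *Nupr1* (179), *Shmt2* (141), *Psph* (44.6), *Asns* (929), *Lars* (347), *Eprs* (1230), *Srm* (63.6), *Prodh* (17.7), *Slc1a5* (74.9), *Hyou1* (150), *Hspa5* (3020), *Itga2b* (223) and *Bnip3l* (177). Against the other day 5 libraries this replicate was low for *Tfrc*, *Cpox* and *Itga2b* and high for *Asns*, *Ddit3* and *Eprs*. In day 5 replicate 2 they were *Cd44* (8.42), *Bcl11a* (30.3), *Runx1* (119), *Mrps21* (156), *H1f0* (994), *Atp5g1* (44), *Padi1* (1.06), *Cat* (197), *Bcl2l11* (56.3), *Prtn3* (1.97) and *Klf1* (327). The rest were *Ect2* in day 2 replicate 3 (110), *Cdkn2b* in day 5 replicate 4 (11.5), *Cdkn1c* in day 2 replicate 5 (6.3), *Gar1* in day 2 replicate 4 (14.9), *Hist2h2aa2* in day 2 replicate 4 (29), *H3f3a* in day 2 replicate 3 (167), *Padi1* in day 2 replicate 2 (1.06).

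The change from day 2 to day 5 differed between WT and *Abcb10*-null cells, by the interaction term of edgeR, for 657 genes. Among those named, the WT change less the *Abcb10*-null change on the log2 scale was 2.44 for *Slfn14*, 2.31 for *Arrdc3*, 2.26 for *Tfrc*, 2.22 for *Gpcpd1*, 2.11 for *Atp2b4*, -2.36 for *Pitpnm2*, -2.28 for *Kif21b*, -2.19 for *Kcp*, -2.03 for *Foxp4*, -1.76 for *Slc7a1*, 1.22 for *Alad*, 0.68 for *Urod*, 1.42 for *Cpox* and 1.05 for *Abcb10*.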

How the results depend on the processing

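The number of genes called between days was 4351, of which 2217 were higher, and it was 3425 to 5067 (1868 to 2573 higher, 1557 to 2494 lower) when 1 library was left out. It was 5331 with DESeq2 (3152 higher, 2179 lower), 4522 with library size alone (1717 and 2805), 5682 with all genes of at least 1 count (3186 and 2496) and 6194 without the 4 libraries that stood apart (2985 and 3209). The replicate block gave 4400 (2142 and 2258). Deviations of same-numbered libraries correlated between -0.336 and 0.516, over 0.1 in 3 of 5 pairs. Whether equal numbers mark the same culture is not given in the labels, and these 5 correlations cannot settle it. Under the block *Tpm3*, *Ackr1*, *Ect2*, *Clpx*, *Padi1*, *Slc38a2* and *Tfeb* lost their call. The cause of these movements was not tested.

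The number of genes that differed between genotypes (657, with 410 and 247 in the 2 directions) was 1235 with DESeq2 (744 and 491), 753 with all genes of at least 1 count (329 and 424) and 685 with the replicate block (372 and 313), and 275 to 1352 (171 to 587 and 102 to 765) when 1 library was left out. The difference in the share of the 100 most abundant genes was 1.03 points, -0.724 without globin, mitochondria-encoded and small RNA genes, and 0.769 to 1.45 when 1 library was left out, with an exact permutation p of 0.0476 at 1.45, without day 5 replicate 5.

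The values that changed sign were those of genes that were not called and of list medians. In the order library size alone, upper quartile factors, all genes of at least 1 count and at least 10 counts in every library, the log2 fold change of *Mki67* was -0.10, -0.04, -0.05 and -0.01, that of *Rps4x* -0.07, -0.03, -0.01 and -0.01, and the median of the mitochondrial iron list -0.10, -0.06, -0.01 and -0.03. Under the replicate block *Mki67* and that median were at -0.01. Without 3 libraries *Mki67* was at -0.02, *Rps4x* at -0.09, *Rpph1* at -0.23, *Hspa5* at 0.02 and the median of the ER list at 0.03. Without 4 libraries *Rps4x* was at -0.21, *Rpph1* at -0.02 and *Ube2c* at -0.04, and *Ube2c* was at -0.03 with library size alone. When 1 library was left out the ranges were -0.08 to 0.35 for *Rpph1*, -0.18 to 0.04 for *Eef1a1*, -0.10 to 0.13 for *Mki67*, -0.32 to 0.36 for *Runx1*, -0.06 to 0.15 for *Rps4x*, -0.55 to 0.01 for *Eprs*, -0.31 to 0.04 for *Hspa5*, -0.07 to 0.02 for *Top2a* and -0.08 to 0.33 for the genotype difference of *Uros*. For list medians they were -0.08 to 0.12 (mitochondrial iron), -0.21 to 0.04 (ribosomal proteins), -0.13 to 0.03 (replacement histones), -0.14 to 0.02 (respiratory chain), -0.55 to 0.14 (mitochondria-encoded), -0.70 to 0.08 (ATF4 targets), -0.21 to 0.02 (ER), -0.12 to 0.02 (antioxidant) and -0.13 to 0.10 (megakaryocyte markers). With all genes of at least 1 count, where more members were tested, the medians were 0.02 for replacement histones, 0.67 for myeloid markers and 1.22 for megakaryocyte markers. The last was 0.11 with all 30 libraries, 0.06 without 3 and 0.11 without 4, and the fibroblast marker was at -0.25 without 4. Without the 4 libraries that stood apart the lower calls were 53 of the mitochondrial ribosomal, 17 of the arginine, proline and polyamine, 12 of the antioxidant, 11 of the TCA cycle, 11 of the mitosis and 8 of the progenitor factor lists. In that fit 24.6% of all genes tested were called lower, which is near the share of the mitosis list. Calls with a p near the threshold, such as *Hmox1*, *Ikzf2*, *Nusap1*, *Hyou1* (3 of 10 fits without 1 library) and *Txnrd1* (5 of 10), are limited by the spread between libraries. Of the values of single genes between days under all alternatives, 3879 kept their direction and side of the threshold, 169 lost and 14 gained a call. For the genotype difference these numbers were 449, 69 and 1.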
